A study of Homo sapiens with 9 samples.

Results

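Rh30 is a human cell line from a fusion-positive rhabdomyosarcoma (FP-RMS), a childhood soft tissue cancer with features of developing skeletal muscle. The values described here come from the 3 arrays, of 9 in the series, whose growth method is given as adherent, and they describe what these cells expressed as a monolayer, with no comparison with the other growth conditions. The study set such monolayers beside spheres and mouse xenografts of the same line to ask whether other ways of growing FP-RMS cells change their stem cell and Notch genes. The adherent cells carry the PAX3-FOXO1 fusion gene, as do all cells of the series, and were grown in RPMI medium with 10% FBS. The 3 arrays are described as biological triplicates. Since they hold 1 line from 1 tumor, the spread between them is that of repeated cultures of the line and says nothing of how FP-RMS tumors differ. RNA was hybridized to the Affymetrix U133 Plus 2.0 array, on which a gene is read by 1 or more probe sets, and each value is a log2 signal after Robust Multi-Array normalization (RMA), so that a difference of 1 is a 2-fold difference in signal.

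In FP-RMS a chromosomal translocation joins the DNA-binding part of PAX3, a transcription factor of muscle precursor cells, to the activation domain of FOXO1. The fusion protein binds enhancers near muscle regulatory genes and growth factor receptors and holds the cells in a state that resembles a myoblast, the precursor that withdraws from the cell cycle and fuses into muscle fibers. Muscle formation is driven by 4 related transcription factors, MYF5, MYOD1, MYOG and MYF6, which bind the short DNA sequence CANNTG, called an E-box. In normal muscle MYF5 and MYOD1 act early and MYOG acts as cells begin to differentiate.

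Of the probe sets that the annotation gave to a single gene, the brightest stood for each of 19775 genes. RMA gives no call of presence, so a floor was set on each array as the 95th percentile of 95 measured genes of remote organs, such as liver secretory, pancreatic, retinal and sperm genes, whose median signal was 4.06. The floor was 6.40, 6.59 and 6.60 on replicates 1, 2 and 3. On all 3 arrays 8728 genes, 44.1% of all genes, were above it, 534 were above it on some arrays and 10513 on none. By construction a few of the reference genes passed, and the brightest of the 5 that did was the keratin gene KRT10, with a mean of 10.54. Nearest to the floor, ROGDI was just inside at 6.86, 6.59 and 6.87, and CXADR just outside at 6.69, 6.59 and 6.71. Taken separately, the floor was 5.94 for the 55 reference genes with 1 probe set and 8.77 for the 13 with 3 or more. Calls near the floor are therefore less firm for genes with many probe sets. The value 8.77 depends on KRT10, since it lies between the signals of KRT10 and of KLK3 (mean 7.59), the next of the 13. The brightest 10% of genes, 1978 in number, had means from 9.85 upwards. Probe sets differ in how well they bind, so ranks here order the signals of probe sets and not the abundance of transcripts, and a gene under the floor may still be transcribed at a low level. In RNA from a whole culture, fewer cells expressing a gene and less RNA per cell cannot be told apart.

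The 3 arrays were close to each other. Their values correlated across all probe sets other than controls at Pearson r = 0.9969, 0.9977 and 0.9971, probe sets not being independent replicates. The median SD of a gene above the floor was 0.076. Among genes above the floor 81 (0.928%) had a range over 0.5 and 0 had a range over 1. In all, 175 genes had exactly the same value on all 3 arrays and 1818 on 2 of them, as the summary of the probes returned it, so for such genes the SD understates the error. Of 53 ribosomal protein genes 52 were above the floor, as were 30 of 34 proteasome genes. The proteasome genes below it on at least 1 array were the immunoproteasome subunits PSMB8, PSMB9 and PSMB10 and the testis subunit PSMA8. Signal of the 3′ probe set minus the 5′ probe set, a measure of RNA degradation and of the length of the labelled copies, was 2.07, 2.67 and 2.44 for ACTB and 0.42, 0.68 and 0.51 for GAPDH, highest on replicate 2 for both genes.

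The myogenic factors divided sharply. MYOD1, which commits cells to the muscle lineage, had signals of 11.06, 11.17 and 11.14 on replicates 1, 2 and 3 (mean 11.12). MYOG, which starts terminal differentiation, was at 9.89, 9.96 and 10.09. Both were in the brightest 10% of genes, on every array above the floor by more than 3 log2 units. MYF5 had a mean of 3.0 and MYF6, a factor of late muscle development, a mean of 3.01. These means are below the median of the genes of remote organs. Each of the 4 genes was read by 1 probe set.

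For the members of this family found among the RefSeq promoter sequences, which are MYOG with a high signal and MYF5 and MYF6 with signals at background, the 250 bases before the annotated transcription start are shown, so that the E-boxes near the starts can be read. Each is printed 5′ to 3′ on the gene's strand, in build GRCh38.p14, with CANNTG in capitals. MYOG lies at chr1:203086013-203086262 on the minus strand, MYF5 at chr12:80716662-80716911 and MYF6 at chr12:80707384-80707633, both on the plus strand.
MYOG: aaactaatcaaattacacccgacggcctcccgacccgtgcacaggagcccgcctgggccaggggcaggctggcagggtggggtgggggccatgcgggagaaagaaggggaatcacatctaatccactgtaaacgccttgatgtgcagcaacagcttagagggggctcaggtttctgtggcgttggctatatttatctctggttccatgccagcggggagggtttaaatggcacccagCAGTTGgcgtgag
MYF5: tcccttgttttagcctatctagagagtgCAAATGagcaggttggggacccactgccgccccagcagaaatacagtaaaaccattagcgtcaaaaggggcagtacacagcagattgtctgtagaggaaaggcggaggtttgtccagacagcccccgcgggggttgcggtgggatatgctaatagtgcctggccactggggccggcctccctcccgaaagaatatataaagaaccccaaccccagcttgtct
MYF6: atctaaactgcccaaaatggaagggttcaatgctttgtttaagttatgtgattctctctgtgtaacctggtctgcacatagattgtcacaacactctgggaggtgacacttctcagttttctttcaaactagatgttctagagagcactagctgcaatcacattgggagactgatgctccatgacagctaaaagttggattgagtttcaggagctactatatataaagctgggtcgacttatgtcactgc
The MYOG window held 1 such match, CAGTTG, the MYF5 window held 1, CAAATG, and the MYF6 window held 0. CANNTG reads the same on both strands, and its narrower forms, those with GC, GG or CC in the middle, were found in none of these windows. Over 27305 RefSeq promoters the same length of sequence held CANNTG in 62.2% and one of the narrower forms in 28.5%, so a match in a window of this length is common. No binding was measured here, and the letters describe the windows and not the use of any site.

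Of 30 measured myogenic transcription factors and regulators, 21 were above the floor on all 3 arrays, 1 on some arrays and 8 on none, against 44.1% of all genes. Their median percentile was 76.3 in the ranking of all genes, in which the dimmest gene is near 0 and the brightest near 100. The brightest of them was SNAI2, a repressor of muscle differentiation genes in myoblasts, at 11.14, 11.22 and 11.08. TCF12 and TCF3 encode the E-proteins that pair with MYOD1 and MYOG on DNA, and both were bright, with means of 10.93 and 10.35. MEF2C, which acts with the MYOD1 family on muscle genes, was at 10.65, 10.78 and 10.63. Of the homeobox and EYA genes that act upstream of the myogenic factors, SIX4 (mean 9.66), SIX2 (mean 9.10), EYA2 (10.20), EYA3 (9.73), EYA1 (9.57) and EYA4 (8.91) were above the floor on all 3 arrays. The ID genes encode inhibitors that bind E-proteins, and ID3 (mean 9.54), ID1 (mean 7.05) and ID2 (mean 7.02) were above the floor too. PAX7, the factor of muscle stem cells and the partner of FOXO1 in the other common fusion of FP-RMS, had a mean of 4.37 and was below the floor on all arrays at both of its probe sets. LBX1, which guides migrating limb muscle precursors, had a mean of 4.67, TWIST2 a mean of 3.49 and MEOX2 a mean of 2.15.

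The partners of the fusion were read less clearly. PAX3 was above the floor at 1 of 4 probe sets, with 8.16, 8.40 and 8.25 on the 3 arrays, and the lowest of the other 3 had a mean of 4.46. FOXO1 was above the floor at 2 of 3 probe sets, and the brightest had a mean of 8.60. The sources used here do not give where on the transcripts these probe sets lie, so the signals cannot be assigned to the fusion or to the unrearranged genes. Under a floor taken from reference genes with the same number of probe sets, neither gene was above the floor. For both genes that floor was 8.77, a value that depends on KRT10.

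Among structural genes of muscle, some embryonic and slow forms were bright, and the listed heavy chains of myosin were at background. Of 57 measured genes of the sarcomere and the muscle membrane, 27 were above the floor on all 3 arrays and 30 on none, a share of 47.4% against 44.1% of all genes, with a median percentile of 48.4. ACTC1, the actin of heart and embryonic skeletal muscle, had the highest signal at 12.75, 12.85 and 12.75. STAC3, which couples excitation to contraction, was at 12.10, 12.09 and 12.19. Slow troponin T (TNNT1) had 11.49, 11.36 and 11.53, and slow troponin I (TNNI1) 11.38, 11.26 and 11.34. MYL4, the myosin light chain of embryonic muscle and atrium, had a mean of 10.33. CHRNA1, the acetylcholine receptor subunit of the muscle endplate, was at 11.08, 11.07 and 11.12. The diagnostic muscle intermediate filament gene DES had a mean of 9.0, and the giant sarcomere proteins nebulin (NEB) and titin (TTN) had means of 9.75 and 8.57. CDH15, the M-cadherin of myoblasts, had a mean of 8.87 and NCAM1, an adhesion molecule of myoblasts and nerve, a mean of 10.33.

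None of the listed myosin heavy chains of the sarcomere was above the floor. The embryonic chain MYH3 had a mean of 3.37, the neonatal chain MYH8 a mean of 4.09, the slow chain MYH7 a mean of 4.36, and the fast chains MYH1, MYH2 and MYH4 had means of 2.25, 3.46 and 2.30. ACTA1, the actin of adult skeletal muscle, was at a mean of 5.16, in contrast to ACTC1. Both troponin C genes, TNNC1 and TNNC2, were below the floor at 5.90 and 5.79, and so was fast troponin T (TNNT3) at 5.57, while fast troponin I (TNNI2), at 6.76, 6.65 and 7.0, was just above it. Of the acetylcholine receptor subunits, CHRNB1 (mean 7.0) was above the floor beside CHRNA1, whereas CHRND (5.06), CHRNE (4.58) and the embryonic subunit CHRNG (5.54) were below it. The kinase of the endplate, MUSK, was below the floor at 5.37, and its partners DOK7 and RAPSN were above it at 9.41 and 7.52. Of the proteins of calcium release, the channel RYR1 had a mean of 7.18, while the pump ATP2A1 (4.97), the voltage sensor CACNA1S (4.82), the buffer CASQ1 (2.75) and TRDN (2.25) were not above the floor.

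**Figure D1:**
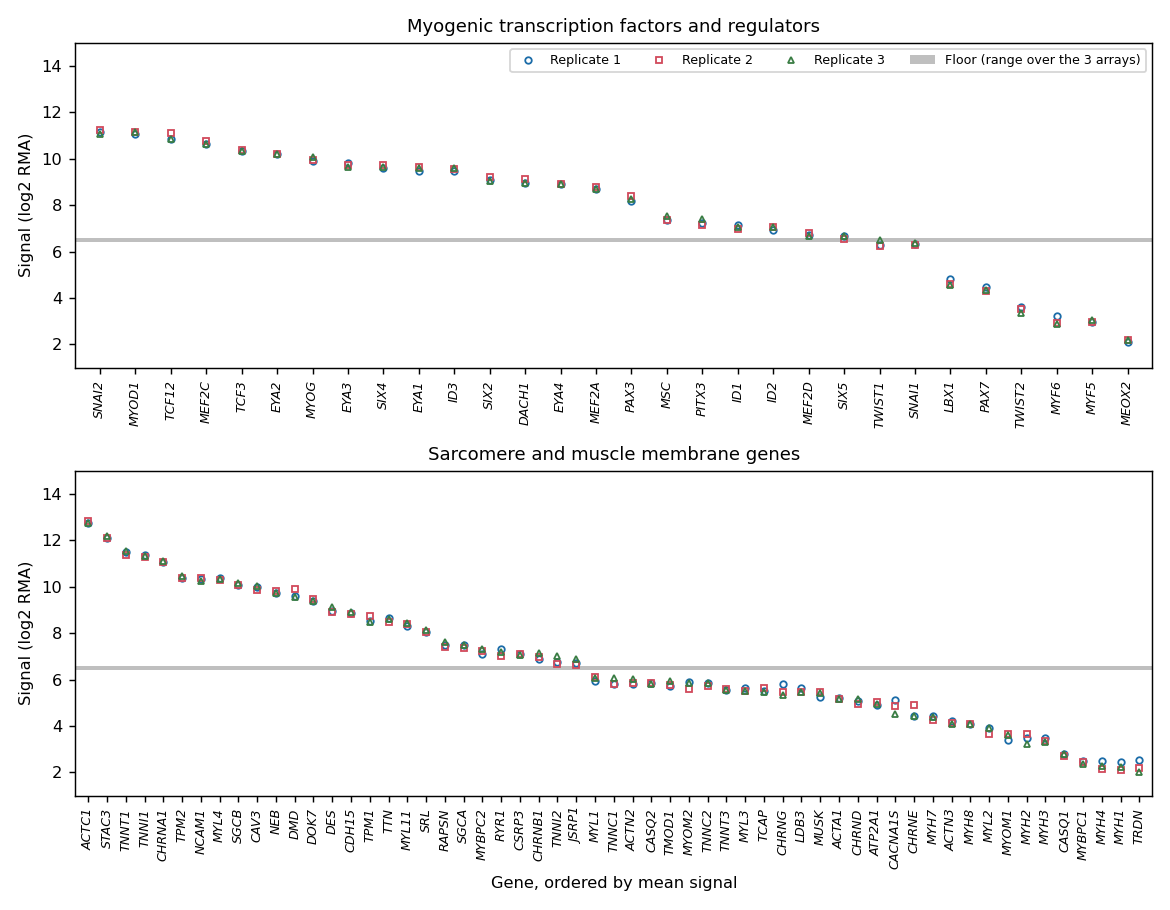
Signal of myogenic transcription factors and regulators (top) and of genes of the sarcomere and muscle membrane (bottom) on each adherent array, in log2 RMA units on the vertical axis, with genes ordered by mean on the horizontal axis. Each symbol is 1 array and the grey band is the range of the floor, 6.40 to 6.60; the replicates nearly overlap, SNAI2, MYOD1 and MYOG stand far above the band, and PAX7, MYF5, MYF6 and the MYH genes lie far below it.

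Few genes on the list of muscle isoforms of energy metabolism, which is not complete, were above the floor. Of 23 measured genes on this list, 5 were above the floor (21.7%, against 44.1% of all genes) and 18 were not above it on any array. The 5 were muscle phosphofructokinase (PFKM, mean 9.93), muscle enolase (ENO3, 9.11), the muscle adenine nucleotide carrier SLC25A4 (8.09), muscle glycogen synthase (GYS1, 7.61) and myoglobin (MB, at 6.63, 6.77 and 6.89). Muscle creatine kinase CKM had signals of 6.18, 6.21 and 6.42, under the floor on each array, while the brain form CKB was at 8.69, 8.78 and 8.91. CKM was above the floor under 4 alternatives, among them the floor of 5.94 for genes with 1 probe set. Muscle phosphoglycerate mutase PGAM2 had a mean of 4.0 and the form of other tissues, PGAM1, a mean of 11.99. The muscle subunits of cytochrome oxidase COX6A2 (4.38) and COX7A1 (5.74) were below the floor, while COX6A1 (12.30) and COX7A2 (12.73) were among the brightest genes. The glucose transporter of muscle and fat, SLC2A4, had a mean of 3.89 and the widespread SLC2A1 a mean of 7.31. PPARGC1A, a coactivator of mitochondrial genes in muscle, had a mean of 3.23. Of 17 measured genes listed as counterparts of non-muscle tissue, 12 were above the floor, with a median percentile of 79.6 against 34.0 for the muscle list. The lists divide the forms imperfectly. LDHA (mean 13.03), the main lactate dehydrogenase form of skeletal muscle, was counted among the counterparts. ALDOA (12.25), the muscle aldolase, was on neither list. The muscle list held LDHD (2.84) and COX8C (2.07), which are not muscle forms. The percentiles are therefore not a clean contrast of muscle and other forms.

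Markers of other lineages were mostly at background, with a few marked exceptions. Of the leukocyte markers 0 of 18 were above the floor, among them PTPRC (mean 2.62) and the HLA class II gene HLA-DRA (3.07). Of the endothelial markers 0 of 12 were above it, among them PECAM1 (5.18), CDH5 (3.41) and KDR (2.90), and of the adipocyte markers 0 of 12, with CEBPA above it on 1 array. Of 17 epithelial markers 2 were above it, EPCAM at 7.35, 7.41 and 7.29 and KRT18 at 6.71, 6.70 and 6.75, while CDH1, the E-cadherin of epithelia, had a mean of 2.57. The cardiac list gave 1 of 11, the homeobox gene NKX2-5 (mean 7.34). NPPA, GATA4 and MYL7 were below the floor. Smooth muscle markers gave 3 of 12, of which DES is shared with skeletal muscle, and the smooth muscle actins ACTA2 (4.73) and ACTG2 (4.70) were not above the floor. Each of these shares was under the 44.1% of all genes.

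Of 24 mesenchymal and fibroblast markers 11 were above the floor, a share of 45.8%, close to the 44.1% of all genes. The intermediate filament vimentin (VIM) had 13.10, 13.12 and 13.16, the matrix protein SPARC 11.58, 11.84 and 11.77, and fibronectin (FN1) 11.25, 11.29 and 11.14. CDH11 (10.22), COL3A1 (9.53) and COL5A1 (8.75) were also above it. Of the chains of type I collagen, COL1A1 had a mean of 7.35 and COL1A2 was below the floor at 4.75. Among the 13 markers above the floor on no array were DCN (5.12), LUM (4.29), THY1 (5.35) and POSTN (3.10).

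Of 11 measured markers of bone and cartilage 3 were above the floor (27.3%, against 44.1% of all genes), and all 3 were in the brightest 10%. RUNX2, the regulator of bone formation, was at 11.06, 11.22 and 10.94, SOX9, the regulator of cartilage, at 10.52, 10.66 and 10.56, and COL2A1, the collagen of cartilage, at 11.26, 11.31 and 11.26. Of the 8 members above the floor on no array, SP7, a regulator of osteoblasts, had a mean of 4.72, ALPL of 4.0, SPP1 of 3.49, IBSP of 4.64 and ACAN of 4.90, and the osteocalcin gene BGLAP, read only by a probe set shared with PMF1, was at 5.32, 5.37 and 5.22.

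Of 32 neural markers 11 were above the floor and 21 on no array, a share of 34.4% against 44.1% of all genes. DCX, a microtubule protein of migrating neurons, was at 12.04, 12.11 and 12.02, NES, the filament of neural and muscle progenitors, at 11.81, 11.88 and 11.65, and POU4F1, a factor of sensory neurons, at 11.51, 11.43 and 11.44. The neuronal tubulin TUBB3 had a mean of 11.20 and MAP2 a mean of 9.85. OLIG2, a factor of the oligodendrocyte lineage, had a mean of 8.64 at 1 of 2 probe sets and 3.32 at the other. NGFR (7.0) and PAX6 (6.73) were nearer the floor. DCX, POU4F1 and OLIG2 are also on the list of PAX3-FOXO1 targets. SYT1, a protein of synaptic vesicles, was just above it at 6.74, 6.88 and 6.78. Among the 21 neural markers above the floor on no array were NEFL (3.10), STMN2 (3.19), SYP (4.69), CHGA (3.67), SNAP25 (3.80), ELAVL4 (3.38) and the glial genes GFAP (4.61) and S100B (2.95).

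**Figure D2:**
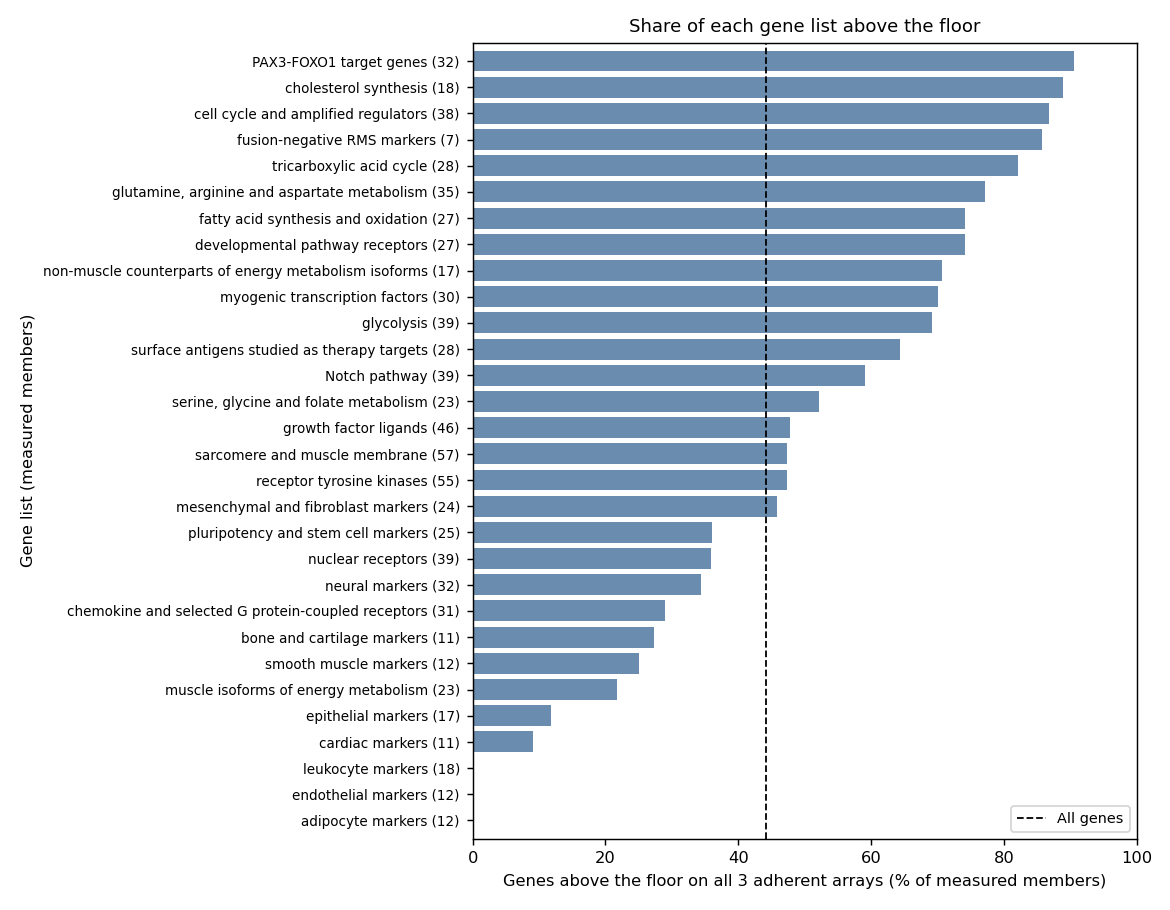
Share of the measured members of each of 30 gene lists that were above the floor on all 3 adherent arrays, in percent on the horizontal axis, with the number of measured members beside each list name on the vertical axis. The dashed line is the 44.1% of all genes; the fusion targets, cholesterol synthesis and the list of cell cycle and amplified regulators stand highest at 90.6%, 88.9% and 86.8%, and leukocyte, endothelial and adipocyte markers stand at 0.

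Targets of PAX3-FOXO1 had high signals. Of 32 measured target genes 29 were above the floor (90.6%, against 44.1% of all genes) and 18 were in the brightest 10%. Their median percentile was 91.1. The list was taken from general knowledge of fusion-positive tumors and cell lines, Rh30 among them, so its high place is not independent evidence of what the fusion does in these cells. The brightest member was ASS1, the argininosuccinate synthase of arginine synthesis, at 13.30, 13.24 and 13.35. SKP2, part of the ligase that degrades the cell cycle inhibitor p27, was at 13.13, 13.24 and 13.09. Markers used to tell FP-RMS from other rhabdomyosarcomas were above the floor on all arrays. TFAP2B, a transcription factor, was at 10.27, 10.14 and 10.30, NOS1, neuronal nitric oxide synthase, at 10.07, 9.98 and 10.01, and CDH3, the P-cadherin, at 8.14, 8.16 and 8.30. MYCN, a growth-promoting transcription factor, was at 11.13, 11.22 and 11.13 at 1 probe set, and its other 9 probe sets were below the floor, the dimmest with a mean of 2.31. BMP5, NELL1, PIPOX and ABAT had means from 10.08 to 10.44. The 3 targets not above the floor were NHLH1 (6.33, 6.28 and 6.52), the adrenergic receptor gene ADRA2A (mean 5.87) and PODXL2 (mean 4.87).

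Genes that mark fusion-negative tumors were above the floor too. Of 7 measured markers 6 were above it (85.7%, against 44.1% of all genes). HMGA2, a chromatin protein of embryonic tissue, was at 10.61, 10.74 and 10.56, FBN2, the fibrillin of developing tissue, at 9.91, 10.24 and 9.85, and PROM1, which encodes the surface protein CD133, at 9.92, 9.94 and 10.08. FGFR1 had a mean of 8.41, HOXC6 a mean of 7.87 and EGFR a mean of 6.73, close to the floor, while PAX7 was the member below it. HMGA2 rested on 1 of 9 probe sets, FBN2 on 1 of 3 and EGFR on 1 of 9, and with the average over a gene’s probe sets 3 of the 7 markers were above the floor.

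Receptor tyrosine kinases ranged from among the brightest genes to background. Of 55 measured receptors 26 were above the floor on all arrays, 1 on some and 28 on none, a share of 47.3% against 44.1% of all genes. FGFR4, a fibroblast growth factor receptor of muscle precursors and a target of the fusion, had the highest signal at 11.32, 11.32 and 11.42. MET, the receptor for hepatocyte growth factor, was at 10.79, 11.00 and 10.84, and ALK, which the fusion also targets, at 10.37, 10.45 and 10.35. EPHA7 (mean 10.51), RYK (10.26) and ERBB3 (9.96) complete the 6 receptors in the brightest 10% of genes. DDR2, a collagen receptor, had a mean of 9.51. AXL, the receptor for GAS6, had a mean of 9.21 at 1 of 2 probe sets and 5.16 at the other. DDR1 was not among the 55 measured receptors, since its 4 probe sets are shared with MIR4640. All 4 were above the floor, the brightest with a mean of 9.85.

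In the insulin receptor family INSR was at 9.10, 9.03 and 9.02 and IGF1R at 8.19, 8.61 and 8.31, while INSRR was below the floor on all arrays with a mean of 4.53. Of the other fibroblast growth factor receptors, FGFR2 had a mean of 8.79, FGFR1 of 8.41 and FGFR3 of 6.84. PDGFRA, a target of the fusion and a marker of mesenchymal cells, had a mean of 8.71 from 1 of 4 probe sets, while PDGFRB was below the floor at 5.54. ERBB2 (mean 7.01) and EGFR (6.74, 6.73 and 6.72) were above the floor by less than 1 log2 unit. Among the 28 receptors above the floor on no array were KIT (3.10), FLT3 (3.78), CSF1R (4.32), KDR (2.90), RET (5.39) and the neurotrophin receptor gene NTRK2 (3.79). Its relative NTRK3 was just above the floor on all arrays, at 6.54, 6.61 and 6.63. The average over probe sets left 16 receptors above the floor, and so did a floor matched on the number of probe sets. Under the matched floor FGFR1, IGF1R, PDGFRA and EGFR were no longer above it. For these genes the matched floor was 8.77, a value that depends on KRT10.

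**Figure D3:**
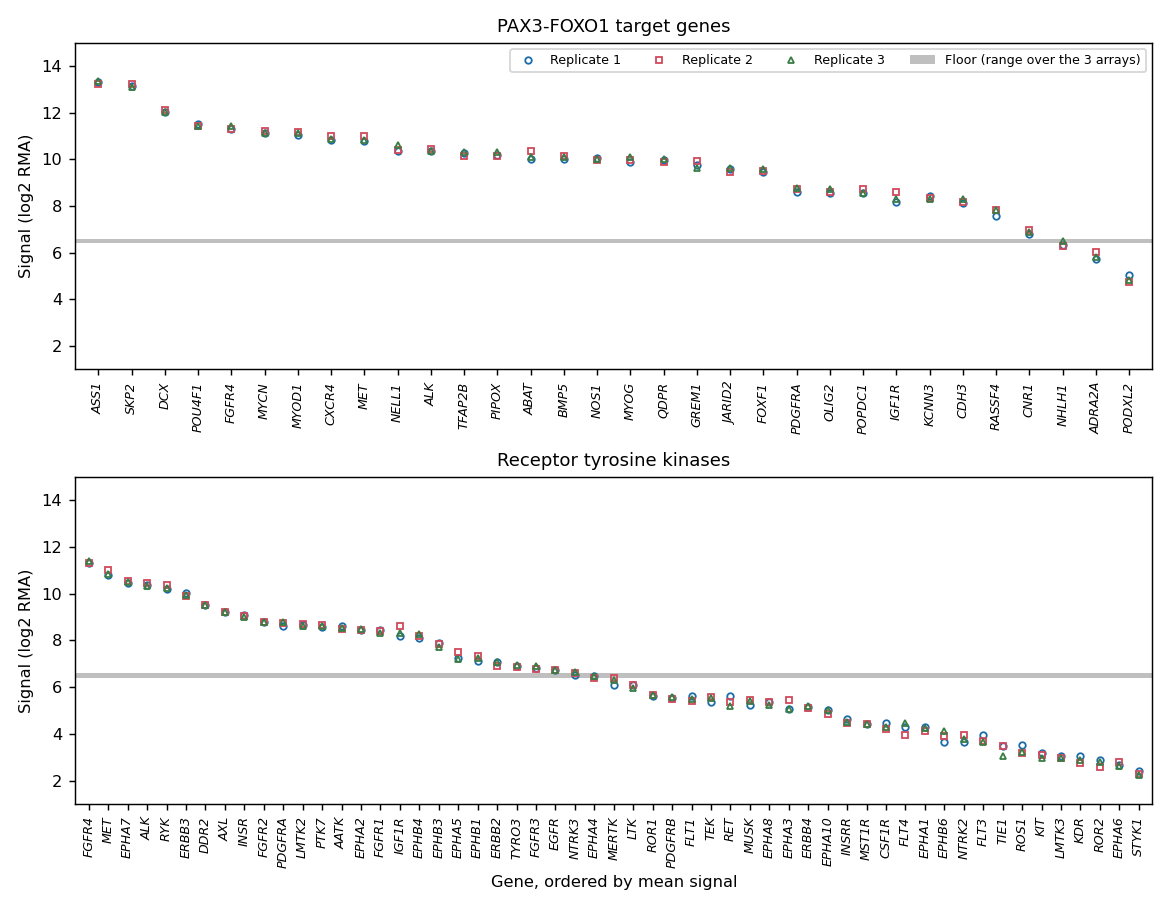
Signal of PAX3-FOXO1 target genes (top) and of receptor tyrosine kinases (bottom) on each adherent array, in log2 RMA units on the vertical axis, with genes ordered by mean on the horizontal axis. Each symbol is 1 array and the grey band is the range of the floor; 29 of 32 targets lie above the band, while the receptors form a gradual slope from FGFR4 (mean 11.35) to STYK1 (mean 2.32).

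Some bright receptors had a ligand below the floor, while IGF1R, with a lower mean of 8.37, had one above it. HGF, the ligand of MET, had a mean of 5.81 and CXCL12, the ligand of the chemokine receptors CXCR4 and ACKR3, a mean of 4.15. ALKAL2, a ligand of ALK, was at a mean of 4.14. CXCR4 itself was at 10.82, 11.00 and 10.87 and ACKR3, which takes up CXCL12, at 11.10, 11.24 and 11.27. ACKR3 was above the floor on all arrays at 1 of 3 probe sets. By contrast IGF2, the growth factor of fetal muscle that acts through IGF1R, was at 12.58, 12.70 and 12.63 at the brightest of its 3 probe sets, all of which are shared with the INS-IGF2 readthrough transcript. IGF1 was below the floor with a mean of 4.95. KITLG had a mean of 9.65 although its receptor KIT was at background. For AXL, GAS6 was above the floor on 1 array, at 6.55, 6.56 and 6.53, and PROS1 on none, with a mean of 5.89.

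Of 46 measured growth factor ligands 22 were above the floor on all arrays, a share of 47.8%, close to the 44.1% of all genes. The brightest of them was the cytokine MIF at 11.11, 10.94 and 11.18, followed by FGF13, an intracellular member of its family, with a mean of 10.71, and BMP5 with 10.08. The platelet-derived growth factors PDGFC (9.89), PDGFD (9.47) and PDGFA (8.52) were above the floor while PDGFB (5.43) was not. MSTN, which encodes myostatin, the inhibitor of muscle growth, was at 8.74, 9.24 and 8.98. VEGFA had a mean of 7.87, and ANGPT1 and ANGPT2 were at background with 3.52 and 3.16.

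Most receptors of developmental pathways were above the floor, 20 of 27 (74.1%, against 44.1% of all genes). GAS1, a coreceptor for Hedgehog ligands, was at 12.26, 12.35 and 12.20 and TGFBR1 at 11.36, 11.69 and 11.42. Both receptors for myostatin and activin of type II, ACVR2B (9.54) and ACVR2A (9.35), were above it, as was PTCH1, the Hedgehog receptor, with 9.19. SMO, the Hedgehog signal transducer, was at 6.63, 6.49 and 6.63, above the floor on 2 of 3 arrays. The Hedgehog effectors GLI3 (9.25), GLI1 (8.49) and GLI2 (7.83) were above the floor on all of them.

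Among 31 chemokine and other G protein-coupled receptors, 9 were above the floor (29.0%, against 44.1% of all genes). After ACKR3 and CXCR4 came the thrombin receptor F2R, at 8.79, 9.17 and 8.71, and the prostaglandin receptor PTGER4 with a mean of 8.45. The chemokine receptors of leukocytes CCR1 (2.78), CCR2 (3.87), CCR7 (2.90) and CXCR2 (2.62) were at background. Of 39 nuclear receptors 14 were above the floor (35.9%, against 44.1% of all genes). Highest was the glucocorticoid receptor NR3C1, at 9.84, 9.86 and 9.67. The estrogen receptors ESR1 (5.23) and ESR2 (5.61), the progesterone receptor PGR (2.94) and the vitamin D receptor VDR (5.20) were not above the floor.

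Of 28 surface antigens studied as targets of therapy 18 were above the floor (64.3%, against 44.1% of all genes). CD276, the B7-H3 antigen, was at 9.18, 9.09 and 9.16 at 1 of 3 probe sets, the others being below the floor. CD99 had a mean of 11.07, CD47 of 9.27, the death receptor gene TNFRSF10B of 9.26 and the glypican GPC3 of 8.99. Below the floor were the checkpoint ligands CD274 (4.05) and PDCD1LG2 (4.01), CSPG4 (6.10), ROR1 (5.64), IL13RA2 (2.95) and CD44. B4GALNT1, which makes the ganglioside GD2, had a mean of 7.26, while ST8SIA1, the enzyme of the step before it, had a mean of 2.23.

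The stem cell genes that the study followed were low or uneven in these cells. SOX2, a factor of neural and embryonic stem cells, was at 7.14, 7.29 and 7.46 at 1 of 4 probe sets, within 1 log2 unit of the floor, and was not above the floor by the mean of its probe sets, under the 99th percentile floor or under the matched floor. NANOG was at background at both probe sets, the brighter with a mean of 3.84. POU5F1 was read only by a probe set shared with its copies POU5F1B, POU5F1P3 and POU5F1P4, at 7.08, 6.60 and 6.60, so its own level is uncertain. Of 25 pluripotency and stem cell markers 9 were above the floor (36.0% against 44.1% of all genes), with a median percentile of 26.7. Besides NES and PROM1 these included LIN28B, which blocks maturation of let-7, at 9.69, 9.85 and 9.70, and MYC with a mean of 9.44, while LIN28A was at 2.11. BMI1, also on the list, was not counted, since its only probe set is shared with COMMD3-BMI1. That probe set was bright, at 10.45, 10.60 and 10.44. ALDH1A1 (1.98), ABCG2 (3.16) and KIT (3.10), markers used to sort stem-like tumor cells, were at background. CD44 was below the floor at all 13 of its probe sets, whose means ran from 2.09 to 3.74.

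Notch signaling begins when a ligand on a neighbouring cell leads to cleavage of the receptor, whose inner part joins RBPJ on DNA at genes such as HES1 and HEY1. Of 39 measured genes of the pathway 23 were above the floor (59.0%, against 44.1% of all genes) and 16 on no array. Of the receptors, NOTCH2 was at 11.00, 11.19 and 10.93, NOTCH1 at 8.03, 8.17 and 8.03, and NOTCH3 at 6.97, 6.94 and 7.03, while NOTCH4 had a mean of 5.14. NOTCH1 and NOTCH3 were each above the floor at 1 of 2 probe sets, and the other had a mean of 4.23 for NOTCH1 and 5.62 for NOTCH3. The ligands JAG2 (8.42), DLL1 (7.99) and JAG1 (7.96) were above the floor, and DLL3 (5.35) and DLL4 (6.13) were not. The protease ADAM10, which makes the first cut, had a mean of 12.07, and RBPJ was at 11.09, 11.12 and 11.14. The readouts were unequal. HEY1 was at 6.74, 6.92 and 7.0, just above the floor, at 1 of 2 probe sets, and at the other it was below the floor at 5.87, 6.21 and 6.19. HEY1 was not above the floor at the 99th percentile floor or by its specific probe set. HEYL had a mean of 8.69, and HES1 was below the floor at all 3 probe sets, the brightest with a mean of 5.43. HES6, which opposes HES1, had a mean of 8.91. NUMB, an inhibitor of Notch, was not above the floor on all arrays at any of its 4 probe sets, while NUMBL had a mean of 9.64.

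Of 38 measured cell cycle genes and regulators that can be amplified, a list that also holds MYC, MDM2 and GLI family genes, 33 were above the floor (86.8%, against 44.1% of all genes) and 13 in the brightest 10%. CDK4, the kinase that inactivates RB1 at the start of the cycle, ranked 26 of 19775, at 13.93, 13.92 and 13.95, among ribosomal and other housekeeping genes. Its partner cyclin D2 (CCND2) was at 12.48, 12.72 and 12.63, while cyclin D1 (CCND1) had a mean of 7.87. AURKA (12.20), TOP2A (12.15) and CDK1 (11.79), of the later cycle, had high means. CDKN2A, which encodes inhibitors of CDK4 and of MDM2, was at 10.72, 10.64 and 10.75, and RB1 had a mean of 9.59. The neighbouring inhibitor gene CDKN2B was at background with 4.16, as was CDKN1C, an inhibitor linked to differentiation, with 4.0. MIR17HG, the host gene of a cluster of growth-promoting miRNAs that is amplified in some FP-RMS, was at 2.59 at its own probe set and above the floor at 1 of its 2 probe sets, a shared one, with a mean of 8.22.

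A segment of chromosome 12 around CDK4 is amplified in some FP-RMS, so the genes on both sides of it were set out in chromosomal order. Of the 20 annotated neighbours on each side, 25 genes were measured, CDK4 included, and their median percentile was 90.7. Windows of the same number of neighbours were centred on each measured gene in turn and kept where they held at least 10 measured genes. Of the 17762 windows kept, the median window was at 51.7 and 14 were above that around CDK4, the highest at 93.9. In this window 84.0% of measured genes were above the floor, a share that 99 of the 17762 windows exceeded, with the median window at 45.5%. OS9, a protein of the endoplasmic reticulum, was at 12.65, 12.64 and 12.70, CTDSP2, a phosphatase, at 12.33, 12.32 and 12.32, and TSFM, a mitochondrial elongation factor, at 11.92, 11.91 and 12.05. ATP23 (11.51), MBD6 (11.23), TSPAN31 (11.18), GIHCG (11.16) and PIP4K2C (11.06) were also bright. The run of bright genes was not complete. KIF5A, a kinesin of neurons, had a mean of 4.69, AGAP2 of 5.96, LOC283387 of 5.68 and LOC101927608 of 5.75. Neighbouring windows share genes, and DNA copy number was not measured here, so the part of copy number in these signals was not tested.

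**Figure D4:**
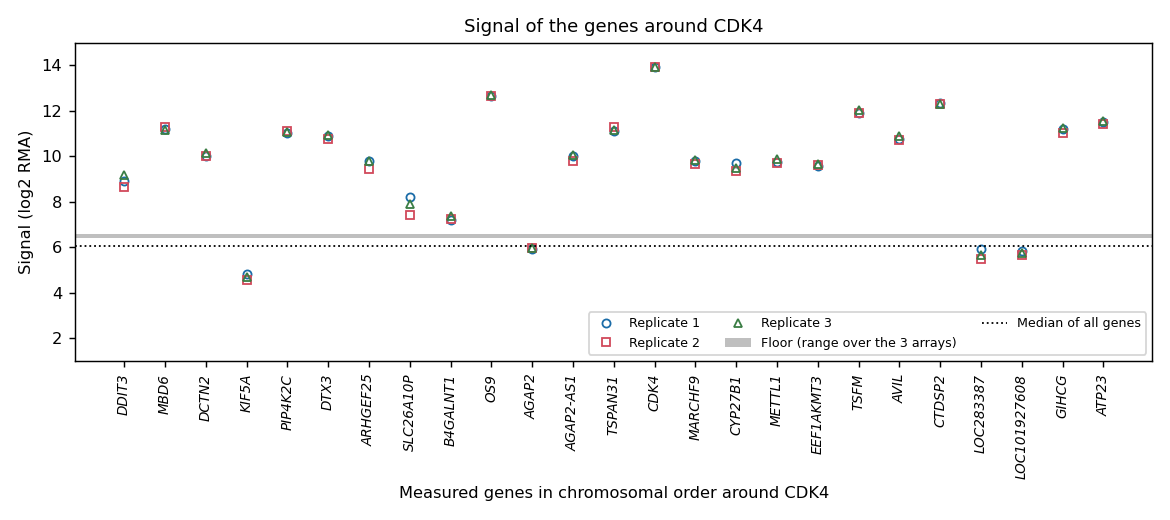
Signal of the 25 measured genes among the neighbours of CDK4, in log2 RMA units on the vertical axis, in chromosomal order with equal spacing on the horizontal axis. Each symbol is 1 array, the grey band is the range of the floor and the dotted line is the median of all genes, 6.07; CDK4 is highest, and KIF5A, AGAP2, LOC283387 and LOC101927608 lie below the band.

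Of 39 measured genes of glycolysis and the pentose phosphate pathway 27 were above the floor (69.2%, against 44.1% of all genes). The brightest 10% held 16 of the 39. GAPDH was at 13.71, 13.59 and 13.74, the lactate dehydrogenases LDHB at 13.35, 13.38 and 13.33 and LDHA at 13.02, 13.09 and 12.98, and enolase ENO1 at 12.64, 12.70 and 12.74. Of the hexokinases, HK1 (mean 9.98) and HK2 (9.42) were above the floor and HK3 (5.45) was not. The pyruvate kinase gene PKM had a mean of 10.63, and the liver form PKLR one of 3.78. The neuronal glucose transporter SLC2A3 was at background with 3.39. Of 28 genes of the tricarboxylic acid cycle and its entry 23 were above the floor (82.1%, against 44.1% of all genes). The malate dehydrogenases MDH1 (12.35) and MDH2 (12.22) had the highest means. The cytosolic malic enzyme ME1 (3.34) and PCK1 (2.18), an enzyme of glucose synthesis in liver, were at background.

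Genes of serine, glycine and folate metabolism were unequal in signal. Of 23 measured genes 12 were above the floor (52.2%, against 44.1% of all genes), and 8 of these were in the brightest 10%. The mitochondrial enzyme SHMT2, which converts serine to glycine, was at 13.11, 13.10 and 13.27, while its cytosolic form SHMT1 had a mean of 5.73. Of the enzymes that pass on its carbon as folate units, the mitochondrial MTHFD2 was at 11.62, 11.75 and 11.75 and the cytosolic MTHFD1 had a mean of 11.06, while the mitochondrial MTHFD1L was at background with 4.20. PHGDH, the first enzyme of serine synthesis, was at 9.73, 9.67 and 9.84, and PSAT1, the next, at 11.63, 11.90 and 11.84. TYMS, which makes thymidylate, was at 12.59, 12.64 and 12.66. The glycine cleavage genes GLDC (4.51) and AMT (5.10) were not above the floor, although GCSH, a protein of the same complex, had a mean of 10.68.

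Genes of glutamine, arginine and aspartate metabolism were above the floor in 27 of 35 cases (77.1%, against 44.1% of all genes). Beside ASS1, the arginine carrier SLC7A1 was at 11.39, 11.43 and 11.43 and ODC1, the first enzyme of polyamine synthesis, at 12.15, 12.17 and 12.23. ASL, the step of arginine synthesis after ASS1, was near the floor at 6.80, 6.90 and 6.92, and the urea cycle gene OTC was at background with 2.21. Asparagine synthetase, ASNS, was at 9.12, 9.07 and 9.58 and the cystine carrier SLC7A11 at 7.23, 7.37 and 7.75, both highest on replicate 3. The glutamine carriers SLC38A2 (12.24) and SLC38A1 (11.20) were bright, while SLC1A5 was below the floor on all arrays at 6.30, 6.19 and 6.38.

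Of 18 measured genes of cholesterol synthesis 16 were above the floor (88.9%, against 44.1% of all genes) and 2 in the brightest 10%. Their median percentile was 82.1. FDPS (10.40), IDI1 (10.29) and ACAT2 (9.81) had the highest means, and MVD (5.44) and TM7SF2 (4.52) were not above the floor. Of 27 genes of fatty acid synthesis and oxidation 20 were above it (74.1%, against the same 44.1%). The desaturase SCD was at 11.87, 12.16 and 11.83, and ACLY, which supplies acetyl-CoA for lipid synthesis, at 11.85, 11.94 and 11.84. For the entry of fatty acids into mitochondria, CPT1A, the form of most tissues, was below the floor at all 4 probe sets, the brightest with a mean of 3.55, and the brain form CPT1C was above it with a mean of 7.49. The muscle form CPT1B was above it at 7.62, 7.13 and 7.51 at 1 of 2 probe sets, both shared with the CHKB-CPT1B readthrough transcript, and below it at the other, with a mean of 5.99. The fatty acid carrier gene CD36 had a mean of 3.21.

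**Figure D5:**
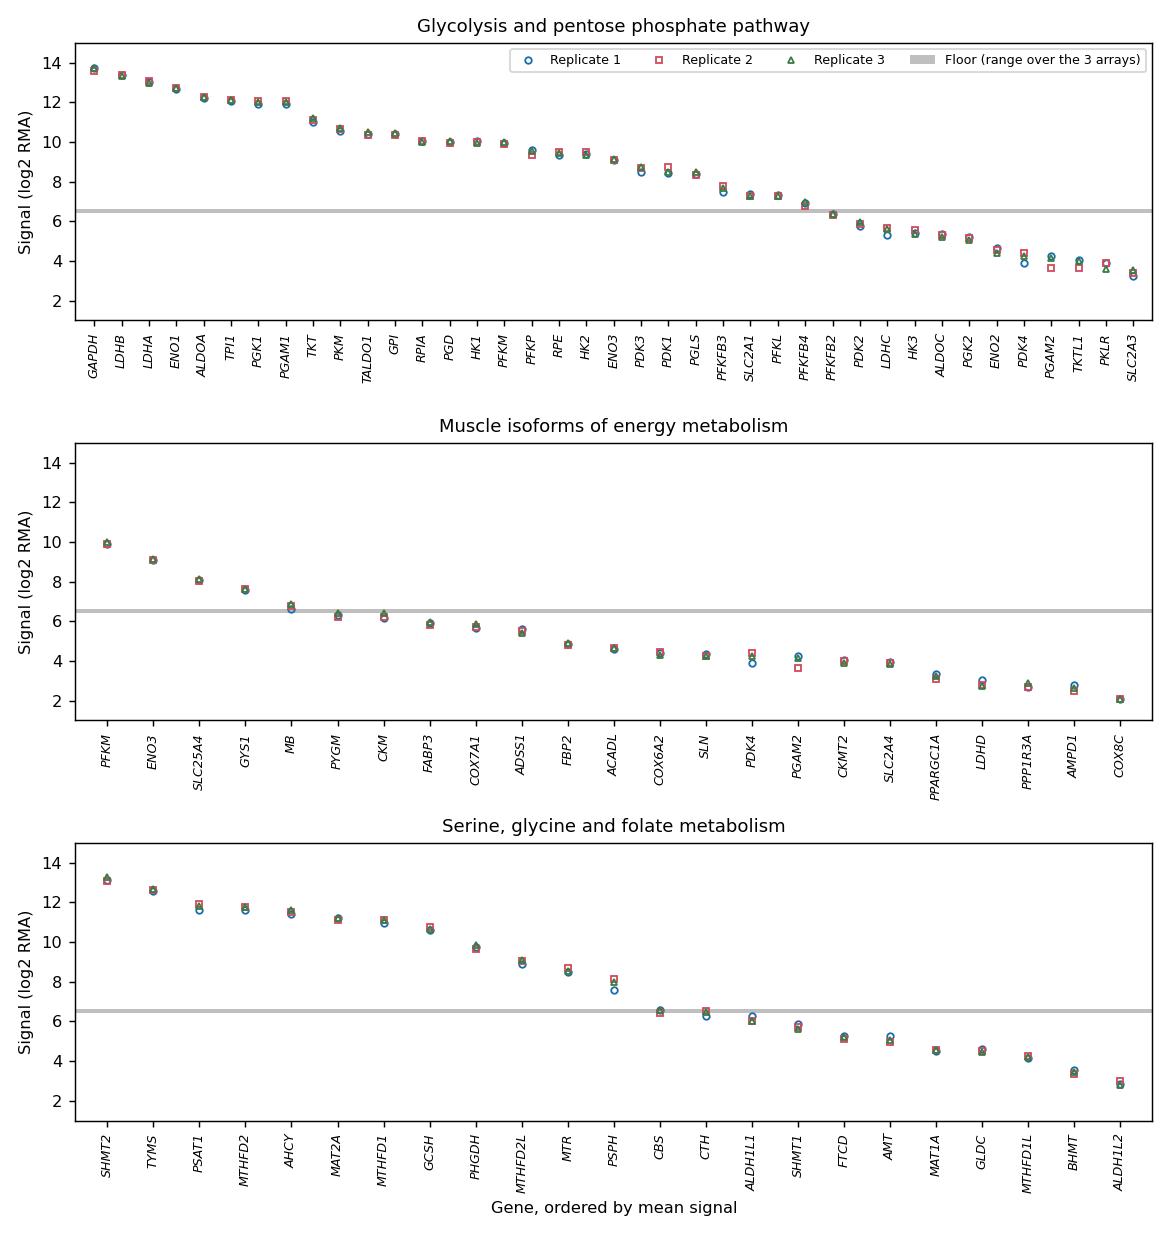
Signal of genes of glycolysis and the pentose phosphate pathway (top), of muscle isoforms of energy metabolism (middle) and of serine, glycine and folate metabolism (bottom) on each adherent array, in log2 RMA units on the vertical axis, with genes ordered by mean on the horizontal axis. Each symbol is 1 array and the grey band is the range of the floor. Above the band lie 27 of 39 genes in the top list, 5 of 23 in the middle and 12 of 23 in the bottom.

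Across the whole ranking the highest signals belonged to genes of protein synthesis. RPL41 (mean 14.48), EEF1A1 (14.43) and RPL39 (14.43) ranked 1, 2 and 3. After genes whose symbols begin with prefixes common among housekeeping genes, such as RPL, RPS, EEF, TUB and NDUF, were set aside, the list was led by TPT1 (14.17), GNAS (14.05), PABPC1 (13.94) and CDK4. Of the next genes MEST, an imprinted gene of fetal mesoderm, was at 13.72, 13.84 and 13.69 and ranked 35. ASS1 ranked 63, SHMT2 ranked 74 and SKP2 ranked 75.

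The genes above the floor that varied most between the 3 arrays were led by PTPRO, a receptor phosphatase, at 9.49, 8.57 and 9.0, a range of 0.93. ATP11A was at 7.45, 7.99 and 7.20 and ZEB2, a transcriptional repressor, at 7.25, 7.86 and 7.09, both highest on replicate 2. INHBE (mean 9.58), CEBPB (8.55, 8.46 and 9.15) and GDF15 (6.85, 7.05 and 7.53), which respond to stress, were highest on replicate 3. Of the 81 genes with a range over 0.5, 17 were highest on replicate 1, 56 on replicate 2 and 8 on replicate 3. The 3′ to 5′ differences of ACTB and GAPDH were highest on replicate 2 as well, and their part in this was not tested.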

How the data were processed

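RNA of Rh30 cells in 3 growth conditions was measured on Affymetrix U133 Plus 2.0 arrays, and the 3 adherent arrays were described. The deposited values are log2 signals that the authors normalized over all 9 arrays together by RMA (background correction, quantile normalization and summary of probes, version not given in the sources used here). They are not centred on the adherent mean. Because the arrays were normalized together, the other conditions had a part in the scale of these values. Of 54675 probe sets, 62 controls were left out. The annotation of the array, updated through gene IDs for 41037 probe sets, gave 41091 probe sets with 1 gene, 1801 with several and 11721 with none, and 19775 genes in all. Each gene took the brightest of its own probe sets on the adherent arrays. A gene was called above the floor when it exceeded, on each array, the 95th percentile of the reference genes of remote tissues (95 of 106 measured). No comparison between groups and no test was made, apart from the alternative given below, and the number of arrays limits the precision. Promoter sequences are from RefSeq (GRCh38.p14).

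The arrays and the 30 lists (821 genes, 750 measured) were chosen with earlier results of these data known. Named in the text were up to 6 of the brightest members of each list, up to 4 members under the floor, a set of genes that the study or the fusion-positive literature follows, the highest-ranked genes and the most variable ones, with fewer where space was short. Other list members named in the text were chosen after their values were seen.

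Alternatives were other choices of probe set, quantile normalization of the adherent arrays, each array left out, other floors and a call on the mean. A further alternative was a one-sided test of signal against the floor with limma 3.58.1 in R 4.3.3 with Benjamini-Hochberg adjustment (0.05). It was tried on simulated data in which all genes without signal lay the same distance below the floor. The simulation therefore did not measure false calls for genes just under the floor. Other steps used Python 3.11.15, pandas 2.3.3, numpy 2.4.6 and matplotlib 3.10.9.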

Additional observations from a re-analysis of the deposited data

How the results depend on the processing

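No paired analysis was possible because no groups were compared. The number of genes above the floor ranged from 6132 to 11210 over the alternatives, and from 8733 to 8866 with 1 array left out, against 8728 with all 3. The limma test called 8579. Of the recomputed counts of list members above the floor, 349 stayed within 1.5 times the value given in the report. The other 41 follow, by setting, and the cause was tested for none of them beyond what each setting does by construction. With the average over a gene’s probe sets, the counts were 1 for smooth muscle, 1 for adipocyte markers, 16 for receptor tyrosine kinases and 3 for markers of fusion-negative tumors. Probe sets whose names mark them as specific cover 16788 genes, and they gave 5 mesenchymal, 1 adipocyte, 0 epithelial and 3 stem cell markers, 13 genes of the Notch pathway, 13 ligands, 2 fusion-negative markers, 13 genes of glycolysis, 10 of cholesterol synthesis and 6 non-muscle counterparts. The floor at the 99th percentile (7.76) left 1 smooth muscle, 0 cardiac, 7 mesenchymal, 6 neural, 0 epithelial and 5 stem cell markers, 11 ligands, 4 chemokine and other receptors, 9 nuclear receptors and 3 muscle isoforms. The floor from olfactory and taste receptor genes (5.30) gave 6 smooth muscle, 3 cardiac, 1 adipocyte, 6 epithelial, 2 endothelial and 3 leukocyte markers, 14 chemokine and other receptors, 22 nuclear receptors and 10 muscle isoforms. The floor at the 90th percentile (5.85) gave 1 adipocyte and 1 leukocyte marker. A floor matched on the number of probe sets (5.94, 6.06 and 8.77 for 1, 2 and 3 or more) gave 1 smooth muscle, 7 mesenchymal and 1 adipocyte marker, 16 receptor tyrosine kinases and 8 nuclear receptors. The value 8.77 depends on KRT10. The limma test called 1 epithelial marker. Over all genes the share above the floor was 42.0% with the average, 41.3% with specific probe sets and 31.0% at the 99th percentile. It was 56.7% with the olfactory floor, 50.8% at the 90th percentile, 38.4% with the matched floor and 43.4% by the limma test. With specific probe sets fewer members of a list were measured, such as 24 myogenic factors against 30 and 44 sarcomere genes against 57. The median percentile of the myogenic factors was 65.8 with the average over probe sets and 75.0 with specific probe sets, that of the sarcomere list 57.4 and 53.6, and that of the fusion targets 83.4 and 84.6. With 10 neighbours on each side of CDK4 the median percentile was 89.5 and the share above the floor 93.3%. Calls of single genes were followed across the alternatives for only a part of the named genes. Of that part, MYCN, HMGA2, ASNS, HEY1 and EGFR fell under the floor with specific probe sets, at which MYCN ranked 8787. Genes without a specific probe set, MYOD1, MYOG and CDK4 among them, could not be judged there. With the average, MYCN, HMGA2, FBN2, SOX2, PDGFRA and EGFR fell under the floor, and at the 99th percentile SOX2, NOTCH3, HEY1 and EGFR. Named genes outside that part were under the 99th percentile floor too, such as NKX2-5 (mean 7.34) and EPCAM (mean 7.35). CKM was above the floor under the 90th percentile, olfactory and matched floors and with the average.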

Other observations

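Genes that are imprinted, that is, read from 1 parental copy, had unequal signals in the adherent cells. Beside MEST, the zinc finger gene PEG3 was at 12.75, 12.98 and 12.67 and PEG10, a gene derived from a retrotransposon, at 10.80, 11.14 and 10.82. H19, the noncoding RNA next to IGF2, was read only by probe sets shared with MIR675, which it hosts, and both were below the floor on all 3 arrays, with means of 3.37 and 4.14, in contrast to the shared IGF2 probe sets at up to 12.70. The imprinted genes DLK1 (mean 5.63) and CDKN1C (mean 4.0) were above the floor on no array. These genes were chosen after their values were seen and are not a complete list.

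Windows of 20 neighbours on each side with a higher median percentile than that around CDK4 were centred on TMEM126A on chromosome 11 (93.9 over 12 measured genes), CALCRL on chromosome 2 (93.3 over 10), CDKL3 on chromosome 5 (92.0 over 15) and B4GALT5 on chromosome 20 (91.3 over 12), each the highest among the windows that overlap it. The window around CYP27B1, which lies beside CDK4, reached 91.1 over 24 measured genes. The CDK4 window held 25.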
